A study of Mus musculus with 6 samples.

Results

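The 9 genes described here act on doxorubicin (DOX) or are acted on by it, and they were chosen by name for that role. They comprise 2 targets of the drug (Top2a, Top2b), 1 enzyme that repairs the lesion it leaves on DNA (Tdp2), 4 efflux pumps (Abcb1a, Abcb1b, Abcc1, Abcg2) and 2 reductases (Cbr1, Cbr3). All 9 were found by symbol among the 55536 genes with raw counts, and all 9 were among the 15374 genes that passed the filter on low counts and were tested.

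DOX binds type II topoisomerases while they hold both DNA strands cut, so that the enzyme stays joined to the broken ends. TOP2A is made by dividing cells and peaks before mitosis, whereas TOP2B is made by dividing and resting cells alike. TDP2 frees DNA ends from trapped topoisomerase II. ABC transporters at the cell surface pump DOX outward, and in the mouse the P-glycoprotein that humans encode in a single gene is split between Abcb1a and Abcb1b. Carbonyl reductases convert DOX to doxorubicinol, an alcohol with less activity against tumor cells, and hepatocytes are rich in such enzymes and in transporters.

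Bulk RNA was sequenced from orthotopic tumors of HCA-1, a murine hepatocellular carcinoma (HCC) line, grown in the livers of male C3H mice (C3H/HeNCrNarl in the study's methods) that were 6 to 8 weeks old at implantation. The 3 control libraries (numbered 5, 6 and 7) came from untreated tumors. The 3 GOx-DOX-LGP libraries (numbered 1, 2 and 5) came from tumors of mice given an intravenous nanogel of lipid, gelatin and protamine that carried a core of glucose oxidase (GOx) and a shell loaded with DOX, so GOx and DOX cannot be told apart in these data, and no tumor given an empty nanogel was analysed here. The labels place dosing on days 18, 19 and 20 but the transcriptome analysis on day 17 after 3 h of circulation, and these days cannot both hold. The study's methods give the same dosing days for tumors taken for RT-qPCR, harvested on the day after the last dose, and no day for the tumors that were sequenced. The labels number the libraries without saying that each came from a different animal, so the p-values below measure the spread between libraries.

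Levels are given as CPM, counts scaled to library size, after TMM scaling. Library totals ran from 15529940 to 18401178 counts, and the level equal to 3 counts lay between 0.132 and 0.323 CPM, so every one of the 9 genes was measured above that floor in every library. Control 5 stood apart from the other controls. Its log2 CPM over all genes tested correlated with that of controls 6 and 7 at 0.730 and 0.659, and with that of the GOx-DOX-LGP libraries at 0.966 to 0.975. The 14 hepatocyte markers moved with this split. Their summed level was 528 CPM in control 5 and 1112 to 3009 CPM after treatment, against 116329 and 201141 CPM in controls 6 and 7, and none was at 0 in any library. Albumin (Alb), the main protein that hepatocytes secrete, was at 353 CPM in control 5, at 73804 and 128244 CPM in controls 6 and 7, and at 733 to 1893 CPM after treatment. The 16 proliferation markers went the other way, with summed levels of 1507, 420 and 112 CPM in controls 5, 6 and 7 and of 1047 to 1384 CPM after treatment. Of the 8 HCC and epithelial markers, Igf2 was at 0 in 3 libraries and Afp, the fetal protein of many HCCs, stayed between 2.25 and 13.2 CPM. The mean log2 CPM of this list differed little, at 4.62 to 5.03 in controls and 4.91 to 5.30 after treatment. This is a mean of genes that differed in both directions, 4 of the 7 tested higher after treatment and 3 lower. Its summed level of 849 to 7911 CPM in controls and 5713 to 8115 CPM after treatment was carried by Spp1, which was at 6838, 463 and 178 CPM in controls 5, 6 and 7. The comparisons of the 9 genes below are therefore given with and without control 5, and the part of hepatocyte content or proliferation in them was not tested. Whether control 5 carries the right label, and whether controls 6 and 7 hold adjacent liver, was not tested either, and every difference between treated and control tumors depends on both. In bulk RNA, fewer cells of a type and less RNA per cell cannot be told apart.

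With all 6 libraries, no gene of the 15374 tested had an adjusted p under 0.05 in edgeR's quasi-likelihood test (0%), and the 9 genes were among them. With an unadjusted p under 0.05, 2.87% of all genes tested were higher after treatment and 14.6% were lower, and Abcg2 and Cbr1 were on the lower side. Of the 16513 genes to which DESeq2 gave an adjusted p, it called 0.684% higher and 9.85% lower. Abcg2 and Cbr1 were again on the lower side, and DESeq2 gave no adjusted p for Abcb1a. Without control 5 the same edgeR test called 22.2% of 16249 genes higher and 25.5% lower. It then called Top2a, Abcb1a, Abcb1b and Abcc1 higher and Tdp2, Abcg2 and Cbr1 lower. DESeq2 without control 5 called the same 7 genes, among 8096 past the threshold of 32690 fitted (3788 higher, 4308 lower). Top2b and Cbr3 were not called in any of the fits. The median log2 fold change was 0.38 over the 9 genes (5 higher, 4 lower) and 0.02 over all genes tested.

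**Figure D1:**
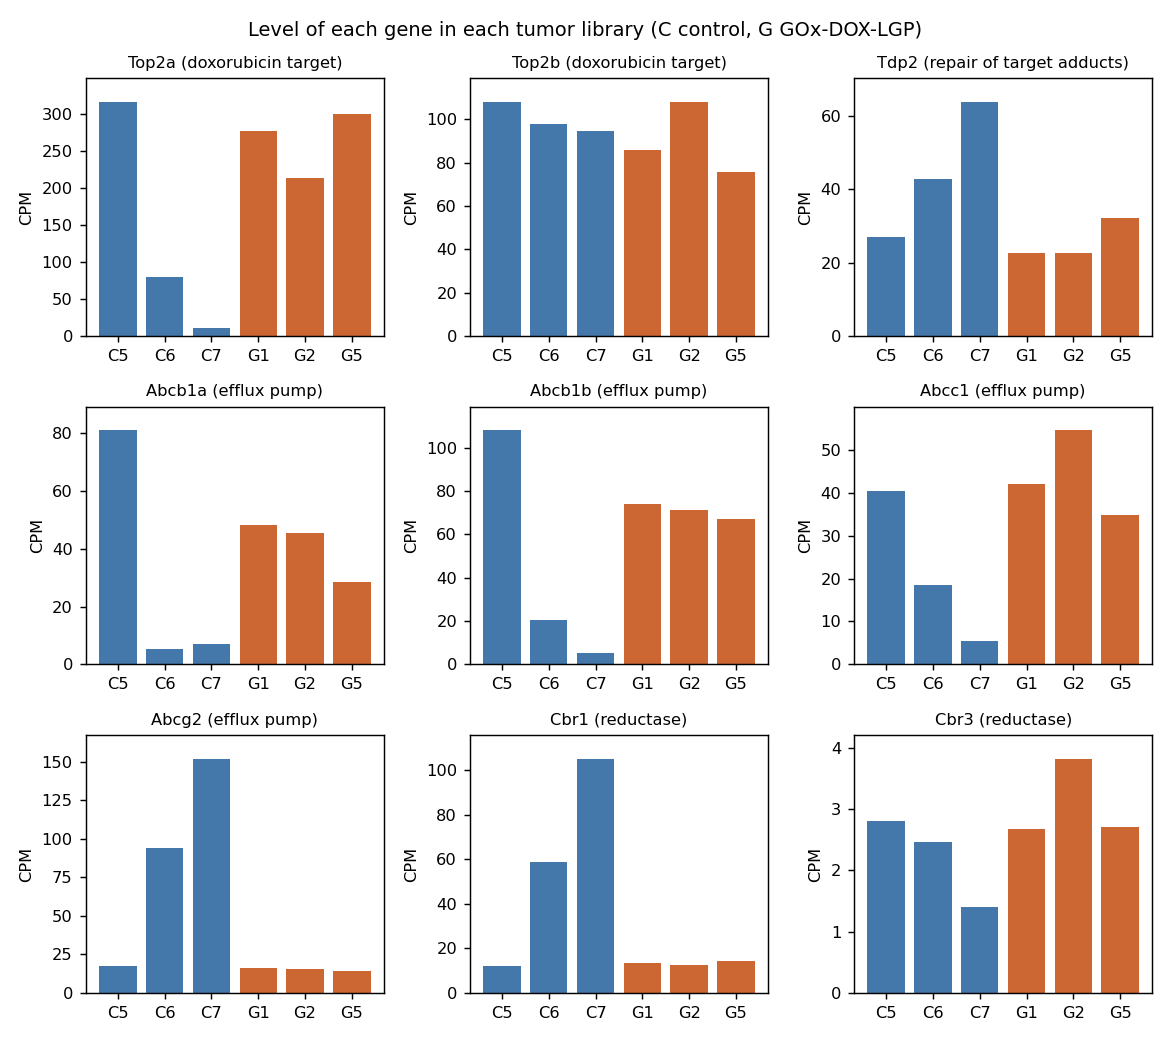
Level of each of the 9 genes in CPM (vertical axis, from 0) in each library (horizontal axis), with control libraries C5, C6 and C7 in blue and GOx-DOX-LGP libraries G1, G2 and G5 in orange. Each bar is 1 library. Control 5 sits with the treated libraries for Abcg2 and Cbr1, and is the highest of the 6 for Top2a, Abcb1a and Abcb1b, while Top2b is nearly level.

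The 2 drug targets were set apart by how far they varied between tumors. Top2a lies at chr11:98992943-99024189 on the minus strand of GRCm38 and has 36 exons in GENCODE M21. It was measured at 317, 80.3 and 10.4 CPM in controls 5, 6 and 7, against 278, 214 and 301 CPM for treated libraries 1, 2 and 5. The highest control was 30.4-fold above the lowest, whereas the treated libraries spanned 1.41-fold, and the groups overlapped because control 5 was above every treated library. The means were 136 ± 161 CPM in controls and 264 ± 45.2 CPM after treatment (SD, n = 3). The log2 fold change was 0.96 (SE 1.04, adjusted p = 0.606 in edgeR), and the two-sided exact permutation test gave p = 0.4, where 0.1 is the smallest p that 3 libraries against 3 allow. Against controls 6 and 7 alone the treated mean was 5.82-fold higher, with a log2 fold change of 2.57 (SE 0.76, adjusted p = 0.0276 in edgeR).

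Top2b lies at chr14:16365179-16435462 on the plus strand, also with 36 exons. Its levels were 108, 97.8 and 94.7 CPM in controls 5, 6 and 7, against 85.8, 108 and 75.6 CPM for treated libraries 1, 2 and 5. These are the narrowest controls of the 9 genes, with the highest 1.14-fold above the lowest, and the groups overlapped with control 5 inside the treated range. The means were 100 ± 6.75 CPM and 90 ± 16.8 CPM (SD, n = 3). The fold change on the log2 scale was −0.15 (SE 0.22, adjusted p = 0.689 in edgeR, exact permutation p = 0.5) and −0.07 (SE 0.20, adjusted p = 0.806) without control 5. The sign of this small difference depended on scaling, since it became 0.34 under library totals and 0.02 under upper quartile scaling. Library totals moved the median of all genes to 0.51. Exons of Rarb overlap those of Top2b on the opposite strand, and whether the counting used strand is not given in the sources used here. Exons on the opposite strand also overlap those of Abcb1a (Gm42686) and Abcb1b (Gm5106), and Gm23451 overlaps exons of Top2a on the same strand.

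The sequences before the start sites of both topoisomerase genes are shown because their levels behaved so differently across the same tumors. Each is the 250 bases upstream of a RefSeq start in GRCm38.p6, read along the gene. Capitals mark matches on either strand to CCAAT, the box bound by the factor NF-Y, and to TTTGAA, the core of the cell cycle genes homology region that cell cycle repressor complexes bind. The Top2a window is chr11:99024190-99024439 on the minus strand, and the Top2b window is chr14:16364956-16365205 on the plus strand.
Top2a: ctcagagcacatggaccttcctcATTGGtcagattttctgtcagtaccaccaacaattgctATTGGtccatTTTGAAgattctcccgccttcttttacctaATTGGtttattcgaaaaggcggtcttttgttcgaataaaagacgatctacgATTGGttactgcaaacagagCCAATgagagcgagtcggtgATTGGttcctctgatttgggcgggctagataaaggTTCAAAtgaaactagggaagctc
Top2b: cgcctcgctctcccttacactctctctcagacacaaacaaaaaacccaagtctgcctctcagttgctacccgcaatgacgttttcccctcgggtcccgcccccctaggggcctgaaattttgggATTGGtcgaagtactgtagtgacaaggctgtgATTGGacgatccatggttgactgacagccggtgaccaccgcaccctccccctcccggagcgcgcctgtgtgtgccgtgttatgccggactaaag
The Top2a window held 6 CCAAT matches, starting 227, 189, 149, 98, 78 and 58 bases before the start, and 2 TTTGAA matches, starting 179 and 23 bases before it. The Top2b window held 2 CCAAT matches, starting 126 and 94 bases before the start, and no TTTGAA match. Among 32851 RefSeq promoter windows of the same length, 33.8% held at least 1 CCAAT, 10.1% at least 2 and 0.0578% (19 windows) at least 6, while 16% held at least 1 TTTGAA and 1.81% at least 2. None of the CCAAT matches overlapped a TTTGAA match. A match is a run of letters in the window and no measure of binding.

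Because a ratio of 2 genes within a library does not depend on how libraries are scaled, Top2a was also set against Top2b and against the proliferation markers. The log2 ratio of Top2a to Top2b was 1.56, −0.28 and −3.17 in controls 5, 6 and 7, against 1.69, 0.98 and 1.99 for the treated libraries. The groups overlapped, with control 5 inside the treated range and controls 6 and 7 below it. The difference was 2.19 (exact permutation p = 0.2, adjusted over 4 such comparisons p = 0.6), and 3.28 without control 5. Relative to the mean log2 level of the 16 proliferation markers, Top2a stood at 2.09, 2.05 and 1.22 in the controls and at 2.01, 2.07 and 2.12 in the treated libraries. Measured this way, 5 of the 6 libraries lay close together and control 7, with the fewest proliferation transcripts, lay lower. The difference was 0.28 (exact permutation p = 0.6, adjusted p = 0.8) and was 0.43 without control 5 and −0.0047 without control 7. Mki67, the proliferation antigen Ki-67, was at 347, 124 and 15.4 CPM in controls 5, 6 and 7 and at 284, 260 and 238 CPM after treatment, the same order of controls as Top2a. By the root mean square difference of centred log2 CPM over the 6 libraries, the tested genes nearest to Top2a were Cdc6, which loads the replicative helicase, at 0.101 and Kif14, a mitotic kinesin, at 0.102. The nearest to Top2b were Maml1, a Notch coactivator, at 0.0251 and AU041133 at 0.0363.

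**Figure D2:**
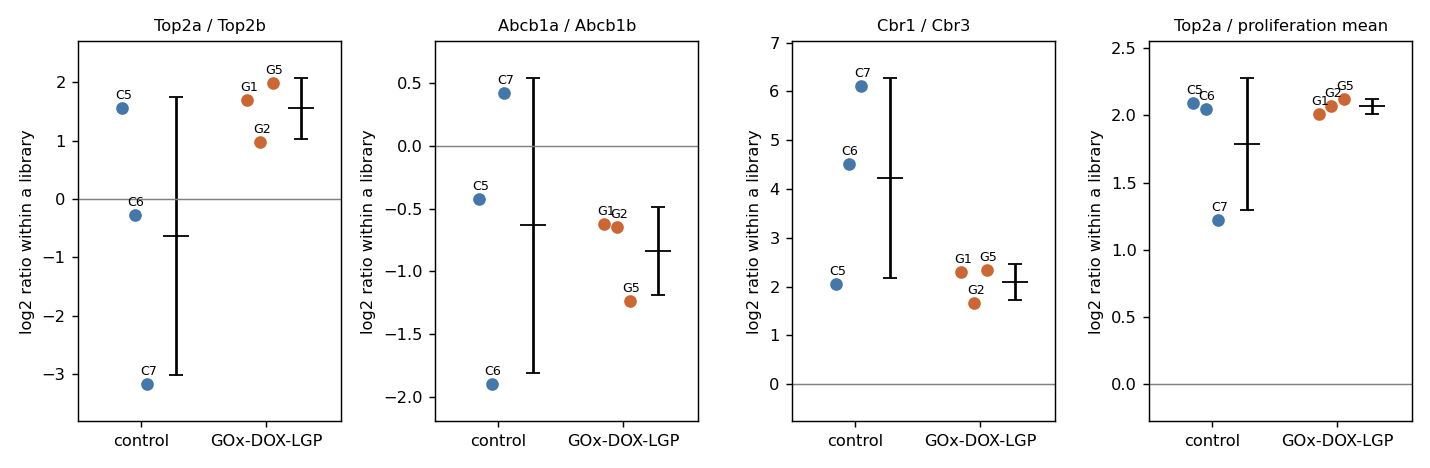
Log2 ratios within each library (vertical axis) for Top2a to Top2b, Abcb1a to Abcb1b, Cbr1 to Cbr3 and Top2a to the mean of the proliferation list, by group (horizontal axis). Points are libraries, and the bars beside them are the mean and SD of 3 libraries. The treated libraries lie close together in all 4 panels, while the controls run from −3.17 to 1.56 for Top2a to Top2b and from 2.06 to 6.12 for Cbr1 to Cbr3.

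Tdp2 encodes the phosphodiesterase that cuts the tyrosine bond between topoisomerase II and DNA, and lies at chr13:24831679-24842153 on the plus strand with 7 exons. It was measured at 27.1, 42.7 and 63.8 CPM in controls 5, 6 and 7, against 22.5, 22.5 and 32.2 CPM for treated libraries 1, 2 and 5. Controls 6 and 7 were above every treated library and control 5 was inside the treated range. The means were 44.6 ± 18.4 CPM and 25.8 ± 5.58 CPM (SD, n = 3). The log2 fold change was −0.79 (SE 0.36, adjusted p = 0.314 in edgeR, exact permutation p = 0.2), and −1.02 (SE 0.25, adjusted p = 0.0149) without control 5. Tdp2 thus ordered the controls opposite to Top2a, with its highest level where Top2a was lowest. The tested genes nearest to it were Haus4, a subunit of the augmin complex of the spindle, at 0.0905 and Preb at 0.0954.

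The other genes of topoisomerase biology, a list of 12 topoisomerases and enzymes that clear topoisomerase adducts, all passed the filter. In log2 fold change 6 were higher and 6 lower in treated tumors, with a median of 0.02, the same as over all genes tested. Their summed level was 426 to 575 CPM in the controls and 467 to 538 CPM after treatment, a sum of genes that differed in both directions. None passed the adjusted threshold in edgeR or DESeq2 with all libraries. Without control 5 edgeR called 5 of the 12 higher and 1 lower, against 22.2% higher and 25.5% lower over all genes tested. The largest differences were those of Top1mt, the mitochondrial topoisomerase (log2 fold change −1.19, SE 0.44, adjusted p = 0.257 in edgeR), Mre11a, the nuclease of the MRN complex (0.67, SE 0.54, adjusted p = 0.507), and Rbbp8, the cofactor CtIP of that nuclease (0.47, SE 0.33, adjusted p = 0.464). Without control 5 these were −1.51 (adjusted p = 0.00145), 1.58 (adjusted p = 0.000769) and 0.90 (adjusted p = 0.0116) in edgeR, each then past the threshold. Top1mt was at 8.60, 21.5 and 27.2 CPM in controls 5, 6 and 7 and at 7.64 to 9.16 CPM after treatment, the same split of the controls as Tdp2.

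The 4 efflux pumps were not alike across the libraries. Abcb1a, Abcb1b and Abcc1 were high in control 5 and the treated libraries and low in controls 6 and 7, and Abcg2 was the reverse. Abcb1a and Abcb1b are neighbors on chromosome 5, at chr5:8660077-8748575 and chr5:8798147-8866315 on the plus strand, each with 28 exons. Of all stretches of 50 bases in their transcripts, 17.6% of those of Abcb1a and 11.6% of those of Abcb1b also occur in another gene, for the most part in the other of the pair, so their counts are uncertain where the authors' counting could split such reads. Abcb1a was measured at 81.0, 5.43 and 7.10 CPM in controls 5, 6 and 7, against 48.2, 45.5 and 28.4 CPM for treated libraries 1, 2 and 5. Control 5 was the highest of all 6 libraries and 12.9-fold above the mean of controls 6 and 7. The means were 31.2 ± 43.1 CPM and 40.7 ± 10.7 CPM (SD, n = 3), and the log2 fold change was 0.38 (SE 1.04, adjusted p = 0.837 in edgeR, exact permutation p = 0.4). Its sign turned to −0.12 and −0.09 when control 6 or control 7 was left out, and leaving out control 5 gave 2.74 (SE 0.32, adjusted p = 0.000519).

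Abcb1b, the copy of the pair that the liver is known to induce under stress and in tumors, was measured at 108, 20.6 and 5.27 CPM in controls 5, 6 and 7. The treated libraries 1, 2 and 5 stood at 74.1, 71.3 and 67.3 CPM, a span of 1.1-fold that was the narrowest among treated tumors for the 9 genes, against 20.5-fold among controls. Control 5 was again above all treated libraries. The means were 44.6 ± 55.4 CPM and 70.9 ± 3.43 CPM (SD, n = 3), with a log2 fold change of 0.66 (SE 0.97, adjusted p = 0.694 in edgeR, exact permutation p = 0.4). Without control 5 it was 2.47 (SE 0.51, adjusted p = 0.00685). The log2 ratio of Abcb1a to Abcb1b was −0.42, −1.90 and 0.42 in the controls and −0.62, −0.65 and −1.24 in the treated libraries. Per kilobase of exon, Abcb1a was the higher of the pair in controls 5 and 7, and Abcb1b in control 6 and all 3 treated libraries. For control 5 this rests on the lengths used, 5480 bases for Abcb1a and 7990 for Abcb1b with all annotated exons joined. In CPM, Abcb1b was the higher there. The difference in ratio was −0.20 (exact permutation p = 0.8, adjusted p = 0.8), −0.10 without control 5 and 0.32 without control 7. For the window before the Abcb1b start, chr5:8797897-8798146 on the plus strand, the same search found 2 CCAAT matches, starting 87 and 66 bases before the start, and no TTTGAA match. TTTGAA was not particular to Top2a among the 9 genes. The Abcb1a window, chr5:8566841-8567090 on the plus strand, held 2 TTTGAA matches and no CCAAT match. These matches start 152 and 59 bases before its RefSeq start. That start lies far upstream of the Abcb1a start given above, so the window is not the sequence next to it. The Cbr3 window at chr16:93682969-93683218 held 1 TTTGAA match, and so did the Abcg2 windows at chr6:58584283-58584532 and chr6:58596422-58596671. The Abcg2 window at chr6:58640296-58640545 and the Cbr1 window at chr16:93607587-93607836 held neither motif. The Abcb1b window is shown for comparison with Top2a, whose order across the controls Abcb1b shared. Abcc1, Cbr3 and, over a narrow range, Top2b had that order too.
Abcb1b: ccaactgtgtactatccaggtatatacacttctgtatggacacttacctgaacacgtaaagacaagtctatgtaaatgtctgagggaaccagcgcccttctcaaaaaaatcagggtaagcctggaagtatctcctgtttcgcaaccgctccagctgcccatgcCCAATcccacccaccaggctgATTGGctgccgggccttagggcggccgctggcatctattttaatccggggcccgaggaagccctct
The genes nearest to Abcb1a were Gvin1, an interferon-inducible GTPase, at 0.190 and Apol8 at 0.235, and those nearest to Abcb1b were Ltbp3, which binds latent TGF-beta, at 0.0352 and Thsd4 at 0.0938.

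Abcc1, also called MRP1, exports drugs and their glutathione conjugates and lies at chr16:14361558-14475737 on the plus strand with 31 exons. It was measured at 40.4, 18.5 and 5.49 CPM in controls 5, 6 and 7, against 41.9, 54.5 and 34.9 CPM for treated libraries 1, 2 and 5. Control 5 fell inside the treated range and the other controls below it. The means were 21.5 ± 17.7 CPM and 43.8 ± 9.94 CPM (SD, n = 3). The log2 fold change was 1.02 (SE 0.67, adjusted p = 0.433 in edgeR, exact permutation p = 0.2), and 1.89 (SE 0.49, adjusted p = 0.0168) without control 5. Its nearest genes were Fcrla at 0.0816 and Timp2, a metalloproteinase inhibitor, at 0.0831.

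Abcg2, the breast cancer resistance protein, lies at chr6:58584523-58695676 on the plus strand with 16 exons and in the liver sits on the bile canaliculus of hepatocytes. It was measured at 17.2, 94.0 and 152 CPM in controls 5, 6 and 7, against 16.3, 15.4 and 14.4 CPM for treated libraries 1, 2 and 5. Every control was above every treated library, by a narrow margin for control 5. It was the only one of the 9 genes whose groups did not overlap, against a background of 8.31% of genes tested without overlap in that direction and 8.87% in the other. The means were 87.6 ± 67.4 CPM and 15.3 ± 0.952 CPM (SD, n = 3). The fold change on the log2 scale was −2.51 (SE 0.73, adjusted p = 0.247 in edgeR, DESeq2 adjusted p = 0.0141), and the exact permutation test gave the smallest p it can reach, 0.1. Against controls 6 and 7 alone the level was 8-fold lower after treatment, with a log2 fold change of −2.97 (SE 0.23, adjusted p = 9.39e-05 in edgeR). With the mean of the hepatocyte markers as a covariate the log2 fold change was −0.79 (SE 0.23, adjusted p = 0.568). The tested genes nearest to Abcg2 were 4931406C07Rik at 0.0788 and Suclg2, a subunit of the mitochondrial succinyl-CoA ligase, at 0.0866.

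Of the other drug transporters, a list of 14, all but Slc22a16, a carnitine transporter known to import DOX that was at 0 in 5 libraries, could be tested. In log2 fold change 9 were lower and 4 higher, with a median of −2.99 against 0.02 over all genes tested. With all libraries none passed the adjusted threshold in edgeR. DESeq2 called 7 lower and 0 higher, against 9.85% lower and 0.684% higher over the 16513 genes to which it gave an adjusted p. Their summed level was 528 CPM in control 5, 3978 and 6513 CPM in controls 6 and 7 and 492 to 518 CPM after treatment, so control 5 again stood with the treated tumors. Without control 5 edgeR called 9 lower and 2 higher, against 25.5% lower and 22.2% higher over all genes tested. The largest differences were in transporters of the hepatocyte membrane, namely Slco1a1 (log2 fold change −7.09, SE 2.20, adjusted p = 0.247 in edgeR) and Slco1b2 (−6.48, SE 2.02, adjusted p = 0.247), which take up organic anions, and Abcb11, the bile salt export pump (−6.64, SE 2.01, adjusted p = 0.247). DESeq2 gave them adjusted p of 0.000523, 0.000651 and 0.000523. In edgeR without control 5 they were −7.64 (adjusted p = 0.00013), −7.03 (adjusted p = 0.000101) and −7.19 (adjusted p = 6.24e-05), and with the hepatocyte mean as a covariate −0.09, −0.13 and −0.23. The summed level of the transporters followed that of the hepatocyte markers given above in which libraries were high, as did Abcg2.

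**Figure D3:**
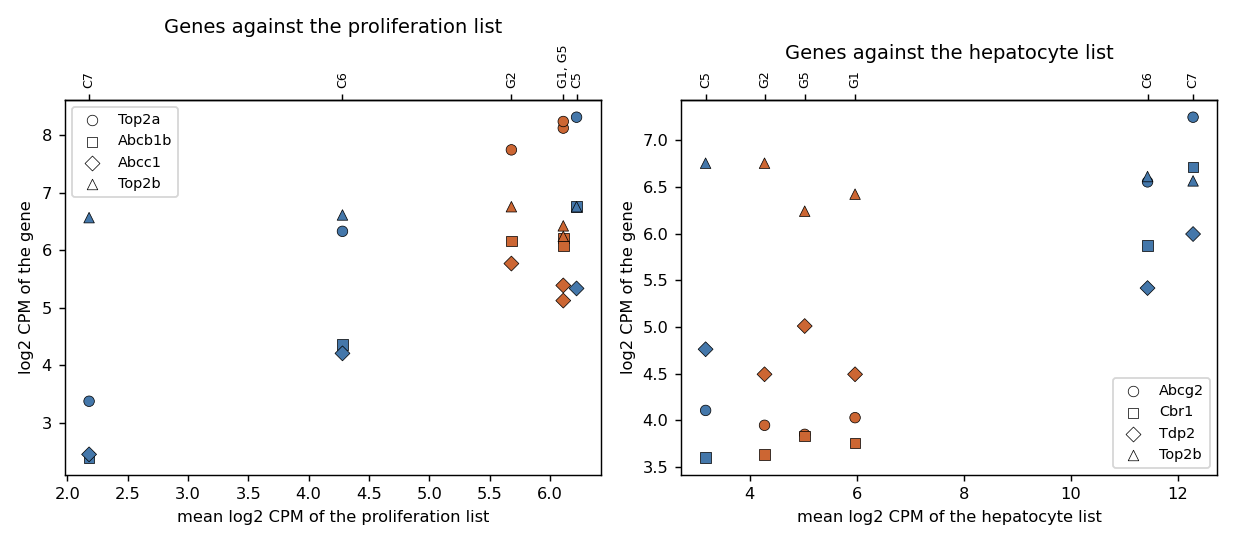
Log2 CPM of Top2a, Abcb1b, Abcc1 and Top2b against the mean log2 CPM of the 16 proliferation markers (left), and of Abcg2, Cbr1, Tdp2 and Top2b against that of the 14 hepatocyte markers (right). Each symbol is 1 library (blue control, orange GOx-DOX-LGP, named along the top axis). Controls 6 and 7 are lowest on the left axis and highest on the right one, control 5 lies next to the treated libraries on both, and Top2b is nearly flat in both panels.

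The reductases Cbr1 and Cbr3 are neighbors on chromosome 16, at chr16:93605853-93610505 and chr16:93683215-93690990 on the plus strand, each with 3 exons, and their levels were unlike. Cbr1, the main carbonyl reductase of the cytosol, was measured at 12.1, 58.6 and 105 CPM in controls 5, 6 and 7, against 13.5, 12.4 and 14.2 CPM for treated libraries 1, 2 and 5. Control 5 was below every treated library and controls 6 and 7 far above them. The means were 58.7 ± 46.6 CPM and 13.4 ± 0.916 CPM (SD, n = 3). The log2 fold change was −2.13 (SE 0.72, adjusted p = 0.247 in edgeR, DESeq2 adjusted p = 0.0484, exact permutation p = 0.4), and −2.58 (SE 0.26, adjusted p = 0.000283 in edgeR) without control 5, where the level was 6.13-fold lower after treatment. As for Abcg2, the difference shrank with the hepatocyte mean as a covariate, to −0.45 (SE 0.26, adjusted p = 0.78). It was also smaller in size with this covariate for Top2a (0.41), Tdp2 (−0.28), Abcb1a (−0.07), Abcb1b (0.11), Abcc1 (0.46) and Cbr3 (0.19), and larger for Top2b (−0.24). The genes nearest to Cbr1 were Itih5 at 0.0625 and 1700066M21Rik at 0.0780.

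Cbr3, a paralog with less activity toward most carbonyl substrates, was the least counted of the 9 genes, with 64, 29 and 13 counts in controls 5, 6 and 7 and 54, 78 and 52 counts in GOx-DOX-LGP libraries 1, 2 and 5. These correspond to 2.81, 2.46 and 1.40 CPM and to 2.67, 3.82 and 2.71 CPM. Control 5 was inside the treated range and the other controls below it. The means were 2.22 ± 0.734 CPM and 3.07 ± 0.655 CPM (SD, n = 3), and the log2 fold change was 0.45 (SE 0.38, adjusted p = 0.524 in edgeR, exact permutation p = 0.3), or 0.68 (SE 0.42, adjusted p = 0.215) without control 5. The log2 ratio of Cbr1 to Cbr3 was 2.06, 4.51 and 6.12 in controls 5, 6 and 7, against 2.29, 1.67 and 2.34 for the treated libraries. Per kilobase of exon, Cbr1 was the higher of the pair in every library, by most in controls 6 and 7. The difference was −2.13 (exact permutation p = 0.3, adjusted p = 0.6) and −3.21 without control 5. The genes nearest to Cbr3 were Nlgn2, a synaptic adhesion protein, at 0.0389 and Fam216a at 0.0422.

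Of 16 other carbonyl and quinone reductases, 15 passed the filter (Akr1b7 did not). In log2 fold change 10 were lower and 5 higher, with a median of −1.12 against 0.02 over all genes tested. With all libraries none passed the adjusted threshold in edgeR. DESeq2 called 4 lower and 0 higher, against 9.85% lower and 0.684% higher over the 16513 genes to which it gave an adjusted p. Without control 5 edgeR called 9 lower and 3 higher, against 25.5% lower and 22.2% higher over all genes tested. Their summed level was 1188 CPM in control 5, 3464 and 5398 CPM in controls 6 and 7, and 1320 to 1520 CPM after treatment, the same split as that of Cbr1. The largest differences were in the aldo-keto reductases Akr1c14 (log2 fold change −5.73, SE 1.74, adjusted p = 0.247 in edgeR), Akr1c6 (−5.34, SE 1.81, adjusted p = 0.247) and Akr7a5 (−2.44, SE 0.84, adjusted p = 0.247). DESeq2 gave them adjusted p of 0.000874, 0.00259 and 0.041. In edgeR without control 5 they were −6.28 (adjusted p = 0.000219), −5.88 (adjusted p = 0.000443) and −2.92 (adjusted p = 0.000137), and with the hepatocyte mean as a covariate −0.79, 0.08 and −0.33.

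**Figure D4:**
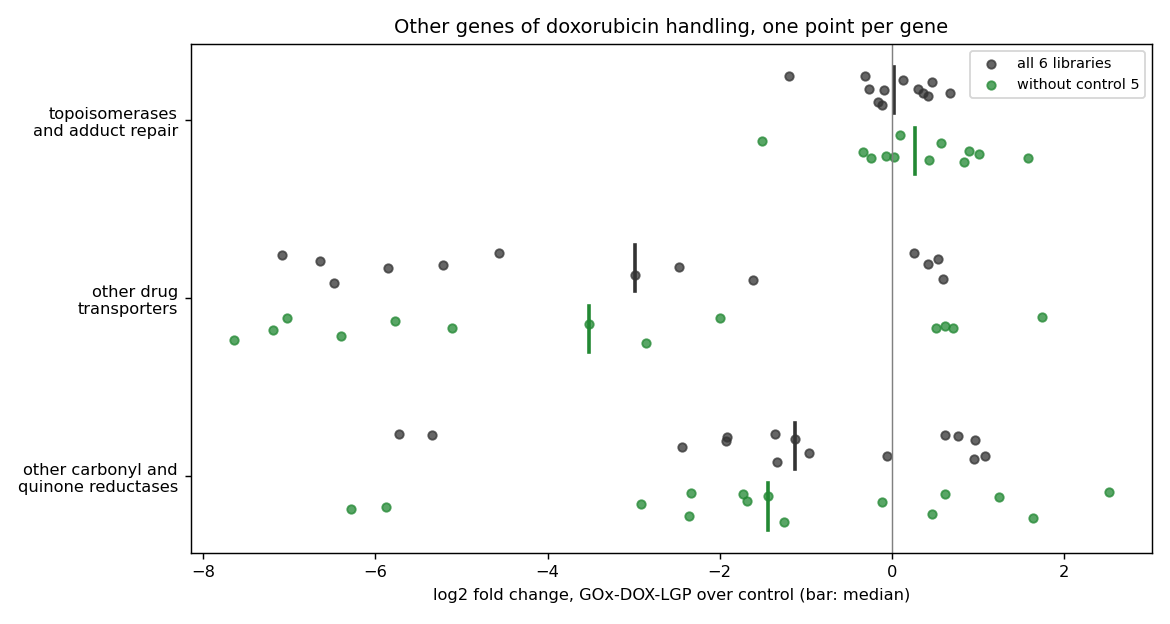
Log2 fold change of GOx-DOX-LGP over control (horizontal axis) for the tested genes of the 3 lists of other topoisomerase and repair genes, other drug transporters and other reductases. Each point is 1 gene, placed at random height within its row, with all 6 libraries in black and without control 5 in green, and vertical bars are medians. The medians were 0.02, −2.99 and −1.12 with all libraries and 0.26, −3.52 and −1.44 without control 5.

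Between genes, levels were compared per kilobase of exon (CPM per kb). The length was that of all annotated exons of a gene joined, from 1254 bases for Cbr3 to 15092 for Abcc1. It can exceed the transcript that a tumor makes, so the order below depends on the annotated isoforms too. In the treated tumors Top2a was the highest of the 9, at 23.7 to 33.4 CPM per kb, and its range did not reach that of any other of these genes. Abcb1b, Tdp2, Abcb1a, Top2b and Cbr1 followed with ranges that overlapped from each to the next, between 9.80 and 4.85 CPM per kb. Abcc1 (2.31 to 3.61) and Cbr3 (2.13 to 3.05) lay below them and overlapped each other, and Abcg2 was the lowest at 1.76 to 1.99. Control 5 held the same first and last genes, Top2a at 35.2 and Abcg2 at 2.11 CPM per kb. In controls 6 and 7 the order differed. Cbr1 came first there, at 22.9 and 41.2 CPM per kb, followed by Tdp2 at 13.0 and 19.4 and Abcg2 at 11.5 and 18.6, whereas Top2a stood at 8.91 and 1.16. Abcb1a was the lowest in control 6, at 0.99 CPM per kb, and Abcc1 in control 7, at 0.364.

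**Figure D5:**
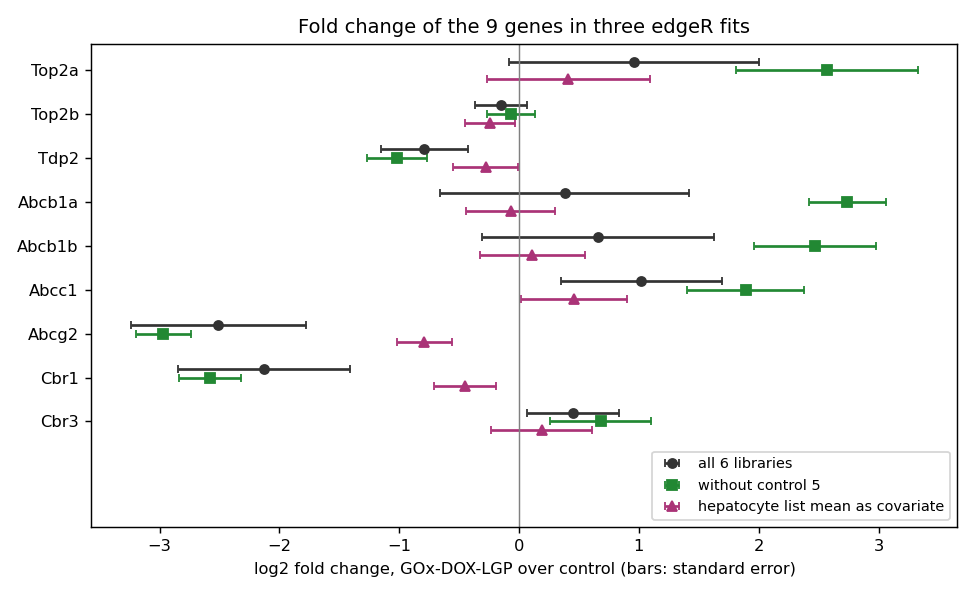
Log2 fold change of GOx-DOX-LGP over control (horizontal axis) for the 9 genes in 3 edgeR fits, with all 6 libraries (circles), without control 5 (squares) and with the mean of the hepatocyte markers as a covariate (triangles). Bars are standard errors. Without control 5 the values of Top2a, Abcb1a, Abcb1b and Abcc1 lie at 1.89 or above and those of Abcg2 and Cbr1 at −2.58 or below, and with the covariate all 9 lie between −0.79 and 0.46.

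Most of these comparisons changed with control 5. It lay inside the range of the 3 treated libraries for 4 of the 9 genes (Top2b, Tdp2, Abcc1 and Cbr3), against 45.6% of all genes tested, above that range for Top2a, Abcb1a, Abcb1b and Abcg2, and below it for Cbr1. Leaving it out brought 8 of the 9 genes to groups without overlap, 5 higher and 3 lower after treatment, where the background was 36.8% of 16249 genes higher and 35.3% lower. With the hepatocyte mean as a covariate in the edgeR fit, the 9 log2 fold changes lay between −0.79 (Abcg2) and 0.46 (Abcc1), none with an adjusted p under 0.568. The 8 endothelial markers, from the vessel lining where Abcb1a and Abcg2 are known to be made in some tissues, summed to 142 to 290 CPM in controls and 104 to 122 CPM after treatment. For 7 of them every control was above every treated library (8.31% of all genes tested were so), with Pecam1 at 38.5 to 44.1 and 33.7 to 35.6 CPM. For 3 of the 8 immune markers, the T cell genes Cd3e and Cd8a and the macrophage gene Cd68, every control was below every treated library (8.87% of all genes tested). The macrophage genes Adgre1 (28.9 to 44.0 CPM in controls, 27.8 to 106 CPM after treatment) and Csf1r (81.5 to 118 and 72.0 to 173 CPM) overlapped. In log2 fold change 7 of the 8 were higher and 1 was lower, the B cell gene Cd79a at −1.06 (SE 0.57, adjusted p = 0.365 in edgeR). The sums over the immune markers were 202 to 378 CPM in controls and 335 to 626 CPM after treatment, with the pan-leukocyte marker Ptprc at 39.3 to 116 and 90.8 to 116 CPM, and for the 7 fibroblast markers they were 1452 to 5816 and 2236 to 7009 CPM, with Col1a1 at 223 to 2281 and 806 to 2260 CPM. None of these 3 lists had a marker at 0 in any library, and their part in the results was not tested.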

How the data were processed

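RNA from 3 control and 3 GOx-DOX-LGP tumors was analysed, with groups and numbers taken from the labels. The authors deposited raw counts per gene for 55536 genes, and signal values for 34685 genes that are the same counts divided by 1 size factor per library, as checked here to within 5.04e-08%. The signal table gave the gene symbols and its values were not tested. The submitters' processing notes name Trimmomatic 0.38, HISAT2 2.1.0 and featureCounts 2.0.0, whereas the study's methods name TopHat and HTSeq, so which tools made the counts is unclear. The build, annotation and use of strand are not given in the sources used here. The tables held 0 columns of other samples.

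Counts were filtered with edgeR's filterByExpr, scaled with TMM and tested with edgeR 4.0.16 (quasi-likelihood test, no covariate, Benjamini-Hochberg over all 15374 genes tested, threshold 0.05) in R 4.3.3. Log2 CPM used a prior count of 2. Each SE given with an edgeR fold change was derived as the absolute log2 fold change over the square root of the F statistic. Permutation tests were exact and two-sided (scipy 1.17.1), and figures were drawn with matplotlib 3.10.9. Library totals of 15529940 to 18401178 counts set the precision, and the floor of 3 counts covers counting error only. Coordinates, exon lengths and shared stretches of 50 bases came from GENCODE M21 (GRCm38), and promoter windows from RefSeq (GRCm38.p6), where 7 of the 9 genes were matched. Exon length was that of the exons of all annotated transcripts of a gene, joined. The edgeR quasi-likelihood test was tried on simulated counts and the permutation test was checked on made-up numbers. The other steps were not tested on simulated data.

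The members and gene lists were chosen with earlier results of these data known. Named were all 9 members, the 3 largest absolute log2 fold changes of each pathway list, the first gene of each marker list, and the 2 genes nearest to each member. Slc22a16, Akr1b7, Igf2, Spp1, Cd3e, Cd8a, Cd68, Adgre1, Csf1r and Cd79a are outside that rule and were chosen after their values were seen. Alternatives were DESeq2 1.42.0, limma voom (limma 3.58.1, samples weighted by quality), the exact test of edgeR, other scalings and filters, the hepatocyte mean as a covariate and leaving out each library. DESeq2 without control 5 was chosen after seeing the data.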

Additional observations from a re-analysis of the deposited data

How the results depend on the processing

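The count of genes past the threshold depended most on the test and on control 5. It was 0 with edgeR's quasi-likelihood test (2685 at an unadjusted p under 0.05), 1739 with DESeq2, 1098 with the edgeR exact test and 9254 with limma voom and sample quality weights, and from 0 to 7745 when 1 library was left out, the highest without control 5. DESeq2 without control 5, chosen after seeing the data, gave 8096. The exact test, with 1098 of 15374 genes past the threshold (61 higher, 1037 lower), called Abcg2. Limma voom, with 9254 of 15374 (4496 higher, 4758 lower), called the same 7 of the 9 genes as edgeR without control 5. The number of the 9 genes whose groups did not overlap was 1 with all libraries and 1 to 8 with 1 library left out, with 8 without control 5, 3 without GOx-DOX-LGP 5 and 2 without GOx-DOX-LGP 2. Without control 5 the share over all 16249 genes was 36.8% higher and 35.3% lower. No such share was computed without a GOx-DOX-LGP library, so those 2 counts cannot be read as a trait of these genes. Leaving out 1 library moved the difference in log2 ratio from -0.84 (without control 6) to 0.32 (without control 7) for Abcb1a to Abcb1b, from 0.92 (without control 7) to 3.28 (without control 5) for Top2a to Top2b, from -3.21 (without control 5) to -1.18 (without control 7) for Cbr1 to Cbr3, and from -0.0047 (without control 7) to 0.43 (without control 5) for Top2a less the proliferation mean. Reversed signs were those of Top2b with library totals (0.34), the upper quartile (0.02) and without GOx-DOX-LGP 5 (0.003), and of Abcb1a with the hepatocyte mean as a covariate (-0.07), without control 6 (-0.12) and without control 7 (-0.09). Leaving out 1 library moved Top2b between -0.29 and 0.003 and Abcb1a between -0.12 and 2.74. The cause was not tested. The other 7 genes kept their sign in all 16 alternatives. No paired analysis was possible because the groups share only the number 5. With 3 libraries a group the permutation tests cannot reach 0.05.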
